A study of Homo sapiens with 4 samples.

Results

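C/D box small nucleolar RNAs are short guide RNAs encoded by the SNORD genes. Their members were taken as every probe, other than control spots, whose transcript identifier mapped to a symbol beginning with SNORD. This gave 197 probes for 194 genes, of 24151 genes with a symbol and a value on every array. A total of 60 of the genes belong to the tandem families SNORD113, SNORD114, SNORD115 and SNORD116, each of which is a row of similar copies, and 134 are other SNORD genes, mostly of single copy.

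RNA came from KYSE180 cells, an established line of esophageal squamous cell carcinoma (ESCC), with no treatment or genetic change named in the labels for either group. TIA1 RIP is RNA recovered with an anti-TIA1 antibody by ribonucleoprotein immunoprecipitation from cytoplasmic lysates, and total RNA is the comparison group. Each group had 2 single-colour Agilent arrays, numbered 1 and 2, and the sources used here do not say whether the 2 replicates came from separate cultures, so p-values measure the spread between these arrays. The sources do not name the cell fraction of the total RNA, and RNA of an IgG immunoprecipitate was not analysed here. An effect of the antibody and an effect of taking the cytoplasm therefore cannot be told apart in what follows.

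In the nucleolus, a C/D box RNA is held by the proteins FBL, NOP56, NOP58 and SNU13, and its guide stretch pairs with ribosomal RNA, where FBL, the methyltransferase, adds a methyl group to a ribose. Most human C/D box RNAs are cut from the introns of host genes, many of which encode ribosomal proteins or are noncoding SNHG genes whose exons have little coding use. U3, encoded by SNORD3 genes, has its own promoter and acts in cleavage of the ribosomal RNA precursor rather than in methylation. The SNORD113 to SNORD116 families lie in imprinted regions, are best known from brain, and most of their copies have no assigned target on ribosomal RNA.

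The sequences of the members that carry the contrasts below are given here 5′ to 3′ on the strand of the RNA, with the C box core and the D box in capitals. These boxes are the sites on which the core proteins assemble. The sequences were read from GRCh37, the build named in the array file headers. SNORD104, SNORD43 and SNORD52 are shown as the brightest members with a unique position, and SNORD60 for the largest lower bound on its fold difference.
SNORD104: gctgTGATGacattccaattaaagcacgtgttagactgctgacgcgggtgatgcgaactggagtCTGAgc
SNORD43: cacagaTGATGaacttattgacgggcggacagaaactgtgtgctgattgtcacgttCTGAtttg
SNORD52: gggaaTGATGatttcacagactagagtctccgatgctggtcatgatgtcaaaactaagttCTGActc
SNORD60: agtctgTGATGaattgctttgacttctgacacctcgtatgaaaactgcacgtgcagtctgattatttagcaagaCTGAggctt
SNORD36A and SNORD36C, in RPL7A, are shown as copies within a host, of which SNORD36A was detected on all 4 arrays and SNORD36C only in total RNA.
SNORD36A: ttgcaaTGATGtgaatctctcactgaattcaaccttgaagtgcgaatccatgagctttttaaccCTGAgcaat
SNORD36C: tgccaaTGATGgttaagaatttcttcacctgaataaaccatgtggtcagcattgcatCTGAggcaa
SNORD116-26 and SNORD116-27 are neighbouring copies of the tandem family that was detected.
SNORD116-26: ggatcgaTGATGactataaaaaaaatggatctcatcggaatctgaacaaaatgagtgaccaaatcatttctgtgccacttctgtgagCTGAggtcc
SNORD116-27: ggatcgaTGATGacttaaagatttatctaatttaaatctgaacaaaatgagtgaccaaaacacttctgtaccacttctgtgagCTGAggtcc

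On GRCh37, SNORD104 lies at chr17:62223443-62223512 on the plus strand within SNHG25, and SNORD43 at chr22:39715055-39715118 on the minus strand within RPL3. SNORD52 lies at chr6:31804853-31804919 on the plus strand within SNHG32, and SNORD60 at chr16:2205024-2205106 on the minus strand within SNHG19. In RPL7A, on the plus strand, SNORD36A lies at chr9:136217311-136217383 and SNORD36C at chr9:136217702-136217767. In SNHG14, on the plus strand, SNORD116-26 lies at chr15:25344646-25344741 and SNORD116-27 at chr15:25346722-25346813. Apart from SNORD104, these stretches overlap an exon of at least 1 annotated host transcript. A probe to an intronic member cannot tell the mature small RNA from an unspliced or intron-retaining host transcript.

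A unique GRCh37 position was found for 148 of the 194 members, of 64 to 237 nt, with a median of 76 nt. The letters TGATG began in the first 20 bases of 134 of them (90.5%), CTGA in the last 20 of 142 (95.9%), and both were found in 131 (88.5%). Among 398 annotated H/ACA box (SNORA) entries of the same build, searched the same way on the RNA strand, 11 (2.8%) held TGATG and 2 (0.5%) held both.

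The labelled fluorescence on each array was expressed as log2 signal relative to the 75th percentile of that array. Total RNA 2 stood apart, with a 75th percentile intensity of 69.9 against 714 to 1514 on the other 3 arrays, and with 32.2% of spots well above background against 45.8% to 48.4%. Over all genes the TIA1 RIP arrays correlated at r = 0.932 and the total RNA arrays at 0.733. TIA1 RIP 1 and total RNA 1 correlated at 0.936, as closely as the TIA1 RIP arrays with each other. Results are therefore also given against each total RNA array alone. All 7 squamous epithelial markers examined were detected on every array. Of 4 leukocyte markers, CD14 and PTPRC were detected on every array, and of 4 fibroblast markers none was. The labelling kit primes from poly(A) tails, which mature C/D box RNAs lack, and silica columns of the kind used for RNA extraction retain RNA of this size poorly. The values are therefore what was recovered and labelled, and are not abundances of the mature RNAs.

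Fewer C/D box RNA probes were detected after TIA1 immunoprecipitation than in total RNA. Detection means that no fewer than a share of 0.5 of the spots of a probe exceeded the local background by the scanner software's test (well above background). Of the 197 SNORD probes, 33 (16.8%) were detected on TIA1 RIP 1 and 31 (15.7%) on TIA1 RIP 2, against 98 (49.7%) on total RNA 1 and 59 (29.9%) on total RNA 2. Over all 34504 probes with a symbol, the shares were 51.0%, 53.4%, 53.1% and 35.9%. The SNORD share was thus lowest on the TIA1 RIP arrays, where the overall share was close to that of total RNA 1, and total RNA 2, the dim array, detected more members than either TIA1 RIP array. This count does not depend on how the arrays were scaled to each other.

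Of the 197 SNORD probes, 24 were detected on both total RNA arrays and on neither TIA1 RIP array, and 0 showed the opposite pattern. Over all 34504 probes with a symbol, 179 showed the first pattern and 401 the opposite one. A further 35 SNORD probes were detected on total RNA 1 alone, 21 on all 4 arrays and 95 on none. In the other small nucleolar classes, too, both TIA1 RIP shares lay below both total RNA shares. Detected shares of 103 SNORA probes, the H/ACA box guides of pseudouridylation, were 46.6% and 42.7% in TIA1 RIP, compared with 86.4% and 75.7% in total RNA. For 23 SCARNA probes, which report RNAs of Cajal bodies, the shares were 39.1% on both TIA1 RIP arrays, compared with 69.6% and 87.0% in total RNA.

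**Figure D1:**
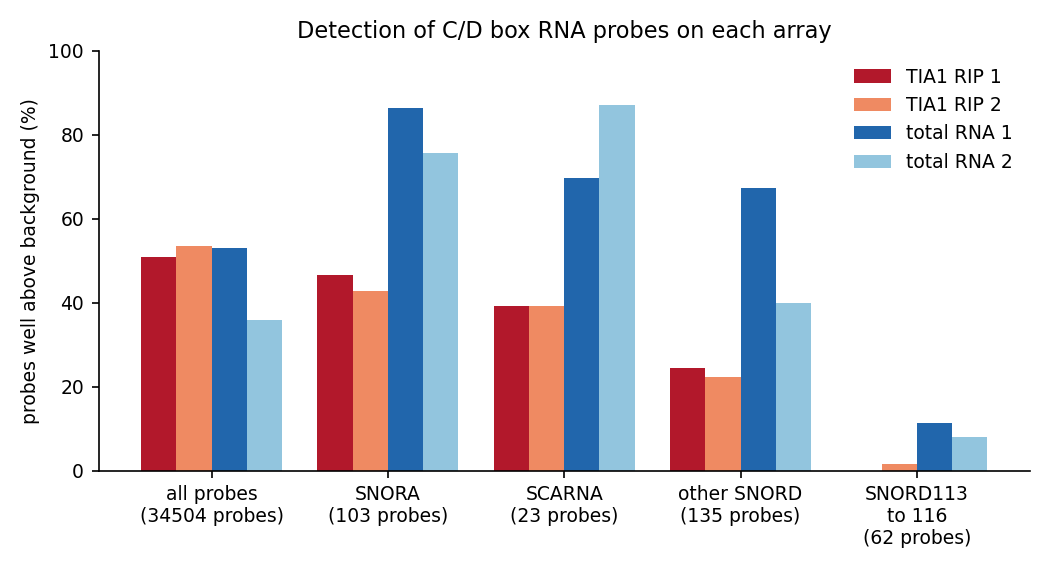
Percent of probes well above background on each of the 4 arrays, for all probes with a symbol, SNORA, SCARNA, other SNORD and SNORD113 to SNORD116 probes. The TIA1 RIP bars of the small nucleolar classes lie below their total RNA bars, while for all probes both TIA1 RIP bars lie above that of total RNA 2 and within a few percent of total RNA 1.

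The tandem families were mostly not detected. Of 62 probes for SNORD113 to SNORD116, 0 were detected on TIA1 RIP 1, 1 on TIA1 RIP 2, 7 on total RNA 1 and 5 on total RNA 2. Of the 135 other SNORD probes, 33 and 30 were detected in TIA1 RIP, compared with 91 and 54 in total RNA. None of 8 SNORD113 probes was detected on any array. Of 30 SNORD114 probes, those of SNORD114-4 and SNORD114-14 were detected, on total RNA 1 only, and of 13 SNORD115 probes that of SNORD115-48 was detected, on total RNA 2 only. SNORD116, a family within SNHG14 in the region of Prader-Willi syndrome, had 5 of 11 probes detected on total RNA 1, 4 on total RNA 2 and 1 on TIA1 RIP 2.

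For measured ratios, probes detected throughout TIA1 RIP or throughout total RNA were kept, and those for the same gene were averaged. This left 58 of the 194 SNORD genes, with 59 probes, and 13039 genes in all. Of the 59 probes, 36 passed only through total RNA and 2 only through TIA1 RIP. Those 36 had to differ between groups, so counts and medians over the 58 genes describe them and support nothing. The 21 SNORD genes detected on all 4 arrays, of 9237 such genes, are given separately because detection there was asked of both groups. This filter was still uneven. On the 75th percentile scale the lowest signal well above background was -1.12 on total RNA 2, against -3.59 to -3.09 on the other arrays. Dim genes therefore had to read higher on total RNA 2 to pass, and the median ratio over the 9237 genes was -0.35.

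TIA1 RIP minus total RNA, in log2, had a median of -3.26 over the 58 genes after subtraction of the median over all 13039 genes, which was -0.04. Relative to that median, all 58 were negative, from -5.90 to -0.55. For the 24 of them not detected in TIA1 RIP, these are ratios to signals near background, and bounds are given below. For the 21 genes detected on all 4 arrays, the median was -1.41 relative to the 9237 genes detected there, with a range from -5.89 to -0.24. Against total RNA 1 alone these medians were -2.16 and -1.59, and against total RNA 2 alone -3.77 and -1.88. A scaling on 6 E1A spike-in probes moved the median of all genes to 4.78 and that of the SNORD genes to 1.52, so only the position of SNORD genes relative to other genes, and not the sign of their ratio, held on both scales.

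With limma (lmFit and eBayes, Benjamini-Hochberg adjustment over all genes), 0 of the 58 SNORD genes passed an adjusted threshold of 0.05, as for all genes (0 of 13039, 0%), and their adjusted p-values ran from 0.591 to 0.880. Without total RNA 1, 46 of the 58 passed as lower in TIA1 RIP, beside 15.7% of all genes, in a fit with a single total RNA array. Of the kept probes, 36 of 59 for SNORD genes passed only through total RNA, against 409 of 16845 over all genes. That filter favours low ratios among the 58 genes, so shares over them and over all genes are not like for like. At an unadjusted p under 0.05 by limma, 35 of 58 SNORD genes were lower in TIA1 RIP, against 4.02% of all genes, and none was higher. Among genes detected on all 4 arrays, 9 of 21 were lower at that level, against 5.69%. On the 75th percentile scale, both TIA1 RIP arrays lay below both total RNA arrays for 48 of 58 SNORD genes, against 21.7% of all genes. On the E1A spike-in scale, where all genes moved up, this held for 1 of 58 SNORD genes, against 24 of 13039 genes. For the genes detected on all 4 arrays this held on the 75th percentile scale for 17 of 21, against 27.9%.

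Against single total RNA arrays, the numbers of SNORD genes more than 2.5-fold lower than the median gene are descriptions with no test. Against total RNA 1 there were 42 of 58, beside 8.41% of all genes, and 13 of 21 among genes detected on all 4 arrays, beside 8.05%. Against total RNA 2 there were 52 of 58, beside 24.5% of all genes, and 13 of 21, beside 18.8%. The total RNA arrays differed from each other by a median of 1.81 in log2 signal over the 58 genes, regardless of sign, and total RNA 2 was the higher in 48. The TIA1 RIP arrays differed by a median of 0.67.

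**Figure D2:**
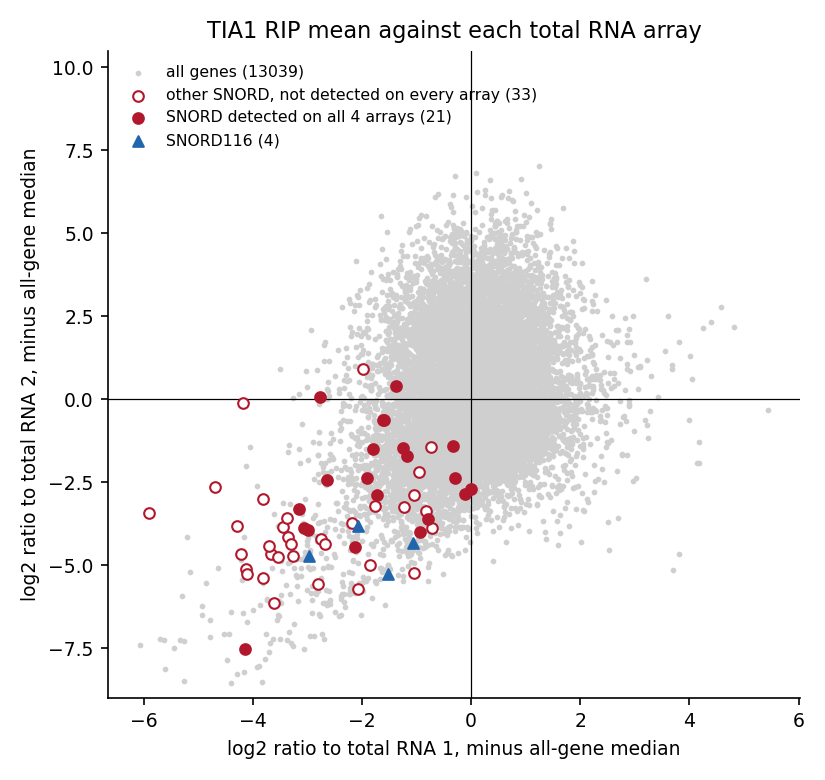
Log2 ratio of the TIA1 RIP mean to total RNA 1 (x axis) and to total RNA 2 (y axis) for 13039 genes, each minus the median over all genes. The median gene is the zero of each axis, and subtracting a constant from an array does not alter positions relative to it. Most of the 58 SNORD genes lie at lower left, and the 4 SNORD116 genes lie further down than left.

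The study expressed enrichment relative to GAPDH, a glycolytic mRNA taken as a transcript that TIA1 does not bind. GAPDH itself stood at 6.49 and 6.69 after immunoprecipitation, and total RNA gave 7.67 and 9.63. Its log2 ratio was -2.06 ± 0.93 (SE), with an adjusted p of 0.776 from limma. Of the 58 SNORD genes, 28 lay more than 2.5-fold below GAPDH, beside 211 genes or 1.62% of all genes. The count was 3 of 58 with normexp background correction, beside 137 of 13039 genes. With quantile normalization it was 44 of 58, beside 623 of 13039 genes. Among SNORD genes detected on all 4 arrays, 4 of 21 lay that far below GAPDH, beside 1.31% of all genes detected there. These 4 were SNORD3B-1, SNORD49A, SNORD104 and SNORD95.

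SNORD3B-1, a copy of the U3 RNA that acts in the early cleavages leading to 18S ribosomal RNA, had the lowest ratio of the 21 members detected on all 4 arrays. Its brighter probe read 0.65 and 0.17 on TIA1 RIP 1 and 2, and 4.80 and 8.50 on total RNA 1 and 2. Its other probe read -3.02 and -3.05, the second of which was not well above background, and 0.71 and 4.50. For both probes all total RNA values lay above all TIA1 RIP values on the 75th percentile scale, and the total RNA arrays lay further apart than the TIA1 RIP arrays. The mean of the probes gave a log2 ratio of -5.94 ± 1.26 (SE, adjusted p = 0.591, limma), or -4.07 against total RNA 1 alone. U3 has several near-identical gene copies, so the signal cannot be given to a single copy. SNORD13 and SNORD118, which also have their own promoters, were not analysed here.

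SNORD104, a guide for 28S ribosomal RNA, was among the brightest members detected on all 4 arrays. It read 2.15 and 0.83 in TIA1 RIP against 4.39 and 5.72 in total RNA, with no overlap on this scale, and its log2 ratio was -3.57 ± 0.91 (SE, adjusted p = 0.654, limma). SNORD49A and SNORD52, also guides for 28S, had ratios of -3.57 and -3.33. SNORD49A read -0.94 and -2.18 against 1.43 and 2.60. SNORD52 read -0.30 and -1.92 against 1.96 and 2.49. In both, the TIA1 RIP values again lay below the total RNA values, and total RNA 1 alone gave similar differences of -2.99 and -3.07.

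SNORD43, which guides methylation of 18S ribosomal RNA, behaved differently against the total RNA arrays. It read 2.43 and 2.47 in TIA1 RIP, and in total RNA it was within 0.1 of these on array 1 but at 5.61 on array 2. Its ratio of -1.60 ± 1.13 (SE, adjusted p = 0.776, limma) thus came from total RNA 2, and the difference from total RNA 1 alone was -0.05. It was the brightest SNORD gene on both TIA1 RIP arrays. SNORD86, in an intron of NOP56, the gene of a core C/D box protein, showed the opposite imbalance. It read 0.54 and -0.94 in TIA1 RIP against 2.49 and 0.03 in total RNA, and the groups overlapped. SNORD95, a 28S guide within RACK1, read -2.91 and -2.92 against -0.85 and 1.84.

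The 5 SNORD genes with the highest ratios among those detected on all 4 arrays were SNORD36A, SNORD105B, SNORD80, SNORD65 and SNORD89. SNORD36A, an 18S guide, read 0.38 and 0.36 in TIA1 RIP against 1.67 and 0.25 in total RNA, so that the TIA1 RIP values lay between the total RNA values. Its log2 ratio was -0.59 ± 0.85 (SE, adjusted p = 0.869, limma). SNORD105B, an 18S guide in PPAN, read -1.19 and -1.68 against -1.18 and 0.27, and its first TIA1 RIP value was within 0.01 of total RNA 1. SNORD80, a 28S guide in GAS5, read -0.48 and -0.06 against 1.25 and 0.64, with a ratio of -1.21. SNORD65, an 18S guide, read -1.73 and -0.96 against 0.20 and -0.43, with a ratio of -1.23. SNORD89 read -3.23 and -2.48 against -2.64 and -0.18, and its groups overlapped. Unlike most members, SNORD36A, SNORD65, SNORD80 and SNORD86 were higher on total RNA 1 than on total RNA 2.

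**Figure D3:**
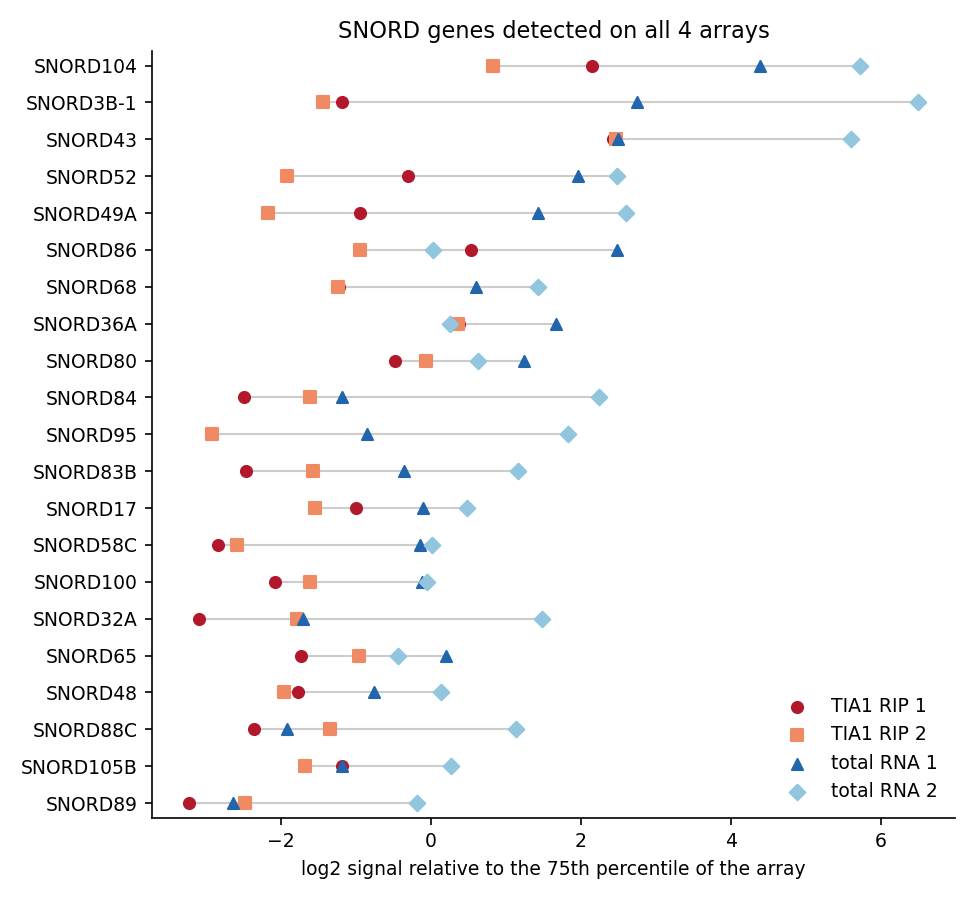
Log2 signal relative to the 75th percentile of the array for the 21 SNORD genes detected on all 4 arrays, with a point for each array and a line over their range, ordered by the mean of the total RNA arrays (SNORD3B-1 is the mean of 2 probes). On this scale, but on the E1A spike-in scale for at most 1 gene, both TIA1 RIP points lie left of both total RNA points in 17 genes, and SNORD43 and SNORD36A show how far single total RNA arrays set the difference.

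Of the 58 kept genes, 24 were not well above background on either TIA1 RIP array, so only a bound can be given. The bound sets the mean of the total RNA arrays against the mean, over the TIA1 RIP arrays, of the lowest signal well above background or of the gene's own signal where that was higher. On the 75th percentile scale the 24 genes were at least 2.69-fold to at least 12.7-fold lower in TIA1 RIP, with a median bound of 6.37-fold. These values depend on total RNA 2. With total RNA 1 alone the median fell to 2.85-fold, the lowest bound was 1.04-fold, for SNORD116-6, and 1 gene, SNORD15A, had no bound. SNORD60, a 28S guide whose sequence is given above, read 1.44 and -0.67 on the total RNA arrays and was at least 12.7-fold lower (adjusted p = 0.591, limma). SNORD36C read -0.26 and 0.83 and was at least 12.0-fold lower, and SNORD22 read 0.27 and -0.18 and was at least 10.2-fold lower, each with an adjusted p of 0.591 by limma. SNORD22, known as U22, is needed for 18S processing. Compared with total RNA 1 alone, the bounds for SNORD60, SNORD36C and SNORD22 were 26.5-fold, 8.23-fold and 11.9-fold.

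The kept tandem members were SNORD116-6, SNORD116-19, SNORD116-26 and SNORD116-27. SNORD116-19 read -4.01 and -2.25 in TIA1 RIP, only the second of which was well above background, against -1.68 and 2.44 in total RNA. SNORD116-26 was not well above background in TIA1 RIP and read -2.34 and -0.23 on the total RNA arrays, which put it at least 4.04-fold lower on the 75th percentile scale. SNORD116-27 read -2.94 and -0.80 and SNORD116-6 read -3.25 and 0.37, with bounds of 2.69-fold and 3.63-fold. All 4 were higher on total RNA 2 than on total RNA 1, by over 2 log2 units each. With total RNA 1 alone, the bound for SNORD116-26 was 1.94-fold and that for SNORD116-6 was 1.04-fold.

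Relative to the median gene, the median log2 ratio was -3.25 for the 4 tandem genes and -3.26 for the 54 other SNORD genes. Against total RNA 1 alone the medians were -1.80 and -2.41, and against total RNA 2 alone -4.52 and -3.61, so the order of these groups turned with the array used. No test of the difference was made. Identity within the SNORD116 set was 87.6% between copies 6 and 19, 85.4% between copies 26 and 27, and 67.0% to 70.7% across these pairs, and signal shared between near-identical copies could not be separated by copy.

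Host genes had higher ratios than most of the small RNAs they carry. GENCODE and RefSeq placed 98 members inside noncoding hosts and 93 inside protein-coding hosts. Of the former 23 were kept (23.5%) and of the latter 32 (34.4%), with median ratios of -3.30 and -2.99 relative to the median gene. For 49 kept members whose host was also kept, the host ratios had a median of -0.52 over 31 hosts, with a range from -2.39 to 2.12. The SNORD gene had the lower ratio in 43 of 49 cases, in 41 against total RNA 1 alone and in 42 against total RNA 2 alone. Of these members 33 were not detected on every array, and most of those were kept only through total RNA. Over the 16 members detected on all 4 arrays it was lower in 12, with a median difference of -0.69. A difference between a SNORD gene and its host on the same arrays does not change when a constant is subtracted from each array. Quantile normalization is not of that kind.

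**Figure D4:**
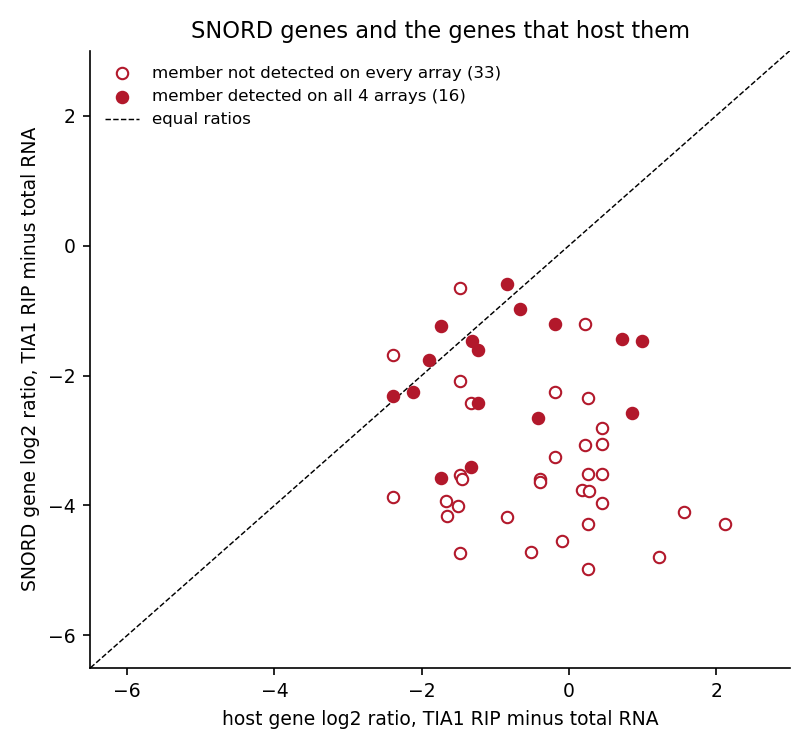
Log2 difference between TIA1 RIP and total RNA for the host gene (x axis) and the SNORD gene (y axis), 49 members in 31 hosts, with equality dashed. Points below the line, 43 of 49, are SNORD genes with a lower ratio than their host. Subtracting a constant from each array does not alter this difference. Most members not detected on every array were kept only through total RNA, which favours a lower ratio. Of the 16 detected on all 4 arrays, 12 lie below the line.

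SNHG1, a noncoding gene that carries 8 SNORD genes, had all 8 detected on total RNA 1, 4 on total RNA 2, 1 on TIA1 RIP 1 and 0 on TIA1 RIP 2. The host itself read 4.72 and 3.34 in TIA1 RIP against 5.60 and 1.94 in total RNA, so that it differed from total RNA 1 by -1.57 and from total RNA 2 by 2.09 (adjusted p = 0.965 for the mean, limma). Its 4 kept members, SNORD22, SNORD25, SNORD26 and SNORD27, were not well above background on either TIA1 RIP array. On the 75th percentile scale they were at least 10.2-fold, 4.16-fold, 7.52-fold and 4.63-fold lower there than in total RNA. With total RNA 1 alone the bounds were 11.9-fold, 1.83-fold, 2.77-fold and 2.88-fold. On that array the log2 ratio of SNORD25, from TIA1 RIP signals near background, was 0.41 above the ratio of its host.

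GAS5, a noncoding host of SNORD genes in its introns, read 6.07 and 6.60 in TIA1 RIP against 6.68 and 6.38 in total RNA, a ratio of -0.19. Its kept members were SNORD47, SNORD74 and SNORD80, with ratios of -2.26, -3.26 and -1.21. SNORD47 read 2.13 on total RNA 1 but -1.55 on total RNA 2, where it was not well above background. SNORD74 read -1.90 on total RNA 1 and 2.66 on total RNA 2. These members of 1 host thus differed in opposite directions between the total RNA arrays.

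RPL13A, which encodes a protein of the large ribosomal subunit, had a ratio of -2.39, and its members SNORD32A and SNORD33 had ratios of -2.32 and -1.69. SNORD35A, its other kept member, was not well above background in TIA1 RIP and was at least 5.15-fold lower there on the 75th percentile scale. SNHG14, the host of SNORD116, had a low level in both groups, -2.20 and -2.56 against -2.84 and -2.84, the last of which was not well above background.

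**Figure D5:**
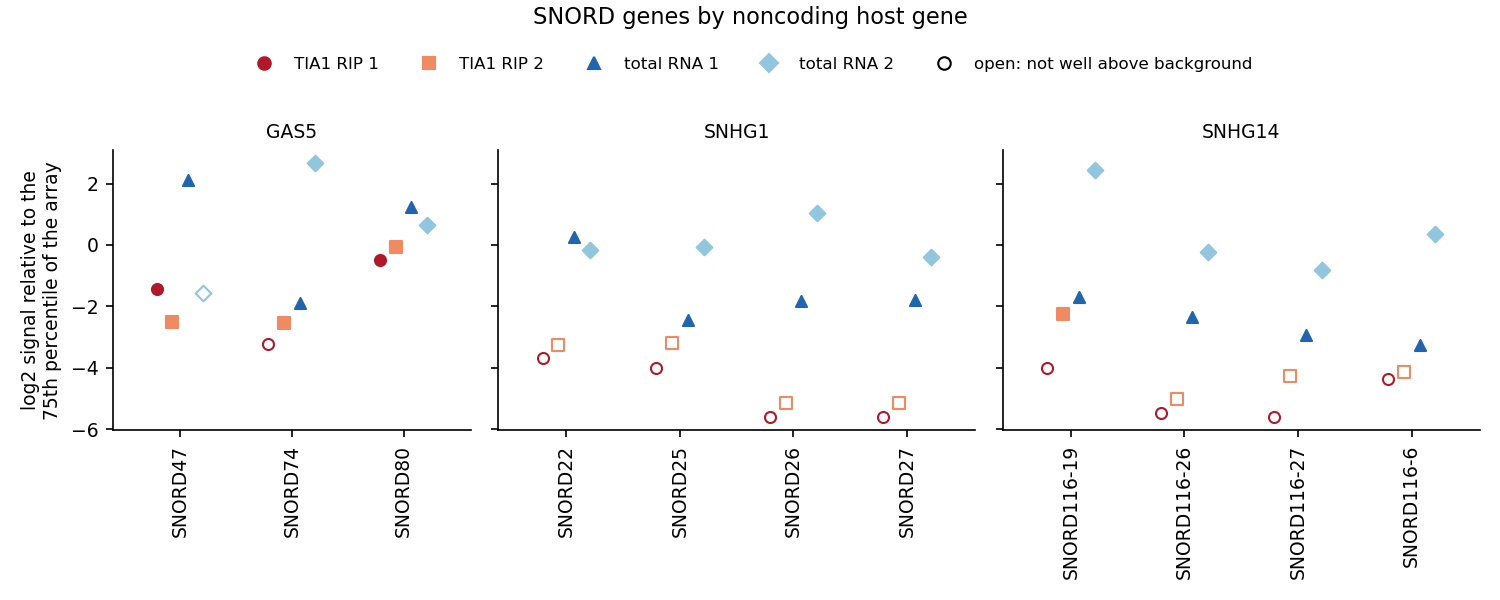
Log2 signal relative to the 75th percentile of the array for the kept SNORD genes of the noncoding hosts GAS5, SNHG1 and SNHG14, with a point for each array, open where it was not well above background. On this scale the TIA1 RIP points of SNHG1 and SNHG14 members lie low and mostly open, whereas SNORD80 of GAS5 was detected on both TIA1 RIP arrays.

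SNORD36A and SNORD36C, copies of a family in the same host, share 60.8% of aligned bases. SNORD36A was detected on all 4 arrays with a log2 ratio of -0.59 ± 0.85 (SE), or -1.30 with total RNA 1 alone. SNORD36C was not well above background in TIA1 RIP and was at least 12.0-fold lower there on the 75th percentile scale, or at least 8.23-fold with total RNA 1 alone. The copies were singled out after their values were seen, and the difference between them was not tested.

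Base composition was described for the 43 kept members with a unique position. The share of T (U in the RNA) ran from 17.6% to 38.7% with a median of 27.8%, against a median of 29.3% for the 105 positioned members that were not kept. TIA1 is known to bind U-rich RNA. Across the 43 genes, Pearson's r between the share of T and the log2 ratio was -0.30 and Spearman's rho was -0.30. Over the 16 detected on all 4 arrays the values were -0.05 and -0.17. The genes share the same 4 arrays and several share a host, so these are descriptions.

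The mRNAs of the proteins that build and use C/D box particles were all kept (22 of 22 listed genes). By limma, 0 passed the adjusted threshold and 0 had an unadjusted p under 0.05 in either direction. Their median log2 ratio relative to the median gene was 0.66, and over all 22 genes its sign differed between the total RNA arrays. With total RNA 1 alone the median was -0.78, with 17 of 22 below the median gene, and with total RNA 2 alone it was 1.47, with 8 of 22 below. On total RNA 2, 7 of the 22 (MPHOSPH10, NOP58, PHAX, RPAP3, TGS1, XRN2 and ZNHIT6) were not well above background, so their single ratios to that array are not given. The medians of 0.66 and 1.47 still include these 7, whose ratios to total RNA 2 were all positive. Among the other listed genes, the middle gene by mean ratio was NUFIP1, at -0.55 relative to the median gene. By ratio to total RNA 2 alone it was NOP56, whose -0.49 lay below the all-gene median of -0.29. The positive signs of 0.66 and 1.47 therefore rest on these 7 genes, whose signals on total RNA 2 were near background. On the 75th percentile scale both TIA1 RIP arrays lay below both total RNA arrays for 5 of 22, a share close to the 21.7% of all genes.

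Among the core proteins, FBL read 7.47 and 7.39 against 7.60 and 8.78, a ratio of -0.76 (adjusted p = 0.827, limma), NOP56 had a ratio of -1.32 and SNU13 one of -0.05. NOP58 differed from total RNA 1 alone by -0.89. Of the 8 assembly factors, which load the core proteins onto the RNA, RUVBL2, an ATPase, had a ratio of -1.74, and ZNHIT6, known as BCD1, differed from total RNA 1 alone by 0.14. Of the maturation and transport factors, EXOSC10, an exosome nuclease that trims 3′ ends, had a ratio of -0.03 and XPO1, the exportin, one of 1.32, but of 0.05 to total RNA 1 alone. PHAX and TGS1, which act on the capped U3 precursor, differed from total RNA 1 alone by -0.71 and -0.97. Of the proteins of the U3 particle, IMP4 had a ratio of -1.63, and MPHOSPH10 differed from total RNA 1 alone by -1.07.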

How the data were processed

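Per the labels and file headers, the authors hybridized Cy3-labelled RNA to single-colour arrays. Their deposited scanner tables (Feature Extraction 10.7.1.1) hold a linear-scale fluorescence intensity for each spot, after background subtraction and not normalized between arrays. All 4 arrays were on 1 slide. The number of arrays limits the precision.

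Processed intensities were converted to log2, uneven or deviant spots (299 to 382 of 58717 an array) were left out, and the 75th percentile of the array was subtracted. Symbols were matched for 34510 of 50599 probes through RefSeq accessions (names and neighbours only, later assembly) and GENCODE on GRCh37. Groups were compared with limma 3.58.1 in R 4.3.3 (lmFit, eBayes, all 4 arrays, no block). The fit was also run on simulated data with changes larger than the SNORD ratios reported here. That run does not show whether smaller changes could be called. Tables and figures used pandas 2.3.3 and matplotlib 3.10.9, and alignments Biopython. The named genes were the kept tandem members, SNORD3, SNORD13 and SNORD118, the 6 brightest, 5 lowest and 5 highest members detected on all 4 arrays, hosts of at least 3 kept members and the pathway list, except 1 host and its members, which are not reported here. Others were named after their values were seen. The members and lists were chosen with earlier results of these data known. Alternatives covered background correction (normexp on the median spot signal, as no mean was used), scaling, detection filter, probe choice, reference, fold, replicate block and each array left out.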

Additional observations from a re-analysis of the deposited data

How the results depend on the processing

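The median SNORD ratio relative to the median gene stayed negative under every alternative run. It was -1.95 with normexp background correction, -1.41 with probes detected on all 4 arrays and -0.96 with no detection filter, and -3.77 to -2.16 with each array left out. The count more than 2.5-fold below GAPDH was 3 with normexp, 44 with quantile normalization and 4 with probes detected on all 4 arrays. The counts over all genes were 137, 623 and 121. With each array left out the SNORD count was 21 to 28, beside 220 to 286 genes. The SNORD count thus depends on the background correction and on dim probes. The count with both TIA1 RIP arrays below both total RNA arrays was 1 of 58 with E1A scaling, beside 24 of 13039 genes. It was 17 of 21 with probes detected on all 4 arrays, beside 2579 of 9237, and 99 of 194 with no filter, beside 4143 of 24151. With each array left out, 1 group held a single array, which is a looser condition. It held for 51 to 54 of 58 SNORD genes, beside 3793 to 6474 of 13039 genes. No filter admits probes at the floor of total RNA 2, which lies above that of the other arrays.

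By limma, 8344 genes were higher past the adjusted threshold with E1A scaling. With each array left out, 0 to 2051 genes were lower, 0 to 1849 higher and 0 to 46 SNORD genes lower. The highest counts came without total RNA 1, and 7 genes were lower without TIA1 RIP 1. The lone total RNA array is then assumed to vary like the TIA1 RIP group. The tandem against other SNORD difference ran from -0.9997 to 0.62 with each array left out and could not be computed with probes detected on all 4 arrays. With no detection filter it was 1.17, with medians of -0.37 for 60 tandem genes, mostly not detected, and -1.54 for 134 others. The same-numbered arrays share only a number, and their deviations from the group means correlated at r = 0.453. With the replicate block, 299 genes were lower and 57 higher, and 32 SNORD genes were lower. A slide or scan block was not run, as all 4 arrays were on 1 slide and in 1 scan. The cause of these changes was not tested. Of 97 alternative values, 80 kept their direction and their side of the threshold or stayed near the value reported. Near was taken widely. Tandem against other SNORD differences from -0.9997 to 1.17 counted as near the main value of 0.01, although some changed sign.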
